A study of Homo sapiens with 42 samples.

Results

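The G2 and mitosis mRNAs described here are 54 mRNAs that dividing cells accumulate from late S phase to the end of mitosis. They were chosen by gene symbol, and all 54 had called sites among the 11671 single gene names of the bulk RNA tables. The choice was made with the edit rates of NES and NLS in both cell lines already known. Those values are therefore given as a description, with no p-value printed. A call made from them marks a value past a threshold of adjusted p and is not a test of a member. The calls and their counts support nothing about the list.

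The study expressed TadA-8e, a bacterial tRNA adenosine deaminase evolved to act on other substrates, in human cells and read the inosine it leaves in RNA as an A-to-G change. Versions of the enzyme were sent to the cytoplasm by an export signal (NES), to the nucleus by a localisation signal (NLS) or to the membrane of the endoplasmic reticulum (ERM). HEK293T, an embryonic kidney line that carries the SV40 T antigen, was transfected by lipofection, and K562, an erythroleukaemia line, by electroporation. Expression was transient in cells of wild-type genotype, GFP-positive cells were sorted, and control cells received a GFP plasmid; the rates in those controls are not used here. The groups used were HEK293T poly(A) RNA with NES, NLS or ERM, K562 poly(A) RNA with NES or NLS, and HEK293T rRNA-depleted RNA with NES or NLS, with 2 libraries each, and 10 single HEK293T cells with NES. The labels do not say whether the 2 libraries of a group came from separate cultures, so the errors describe the spread between libraries, which may be technical.

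Progress from G2 into mitosis is driven by CDK1 bound to cyclin A or cyclin B. Aurora and Polo-like kinases then build the spindle, the kinetochores attach it to chromosomes, and a checkpoint holds back the ubiquitin ligase APC/C until every chromosome is attached. Many of the genes are transcribed together in G2 and their mRNAs fall after division, and sorted, unsynchronised cells contain all phases. A difference in cell cycle phase between lines or libraries was not measured here.

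An edit rate is the percentage of reads at an adenosine that show the change. Each bulk table lists the sites at which the authors' adjusted p-value was under 0.05 in both libraries, and gives no read count, so the depth behind a rate is unknown. With NES, 907935 sites were called in HEK293T and 945447 in K562 poly(A) RNA, with NLS 574863 and 560441, and with ERM 371699; the rRNA-depleted tables held 345061 and 340436. The erythroid markers HBG1, HBG2, HBZ, HBE1, HBA1, GATA1, ALAS2 and EPOR each had sites in K562 and none in HEK293T poly(A) RNA, with EPOR at 1 site in each rRNA-depleted table. Of 6 HEK293T markers, NEFM, NEFL and CDH2 had sites in HEK293T and 0 in K562, while PAX2 and SOX11 had 0 in every table and LHX1 had 1 in each rRNA-depleted table. The 54 mRNAs held 17880 different called sites, all inside the RefSeq interval of their gene (GRCh38.p14); exon, intron and UTR positions were not assigned here.

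The bases around edited adenosines are shown first, to set out the stretches of these mRNAs that the enzymes edited. RefSeq start windows were found for 46 of the 54 genes, and 39 called sites of 19 of them lie among the first 49 transcribed bases of such a window. A choice of them follows, 5′ to 3′ on the strand of the gene, with the edited adenosine in capitals and up to 10 bases on each side, as far as the window reaches.
CCNB1, chr5:69167181-69167199, plus strand: tgctgggtgtAggtccttg
CENPE, chr4:103198312-103198332, minus strand: tcagcctgatAggatggcgga
CKAP5, chr11:46846241-46846261, minus strand: caaacggcttAgagcaggccg
PRC1, chr15:90994506-90994526, minus strand: cggagcggctAcgcggagtga
KIF2C, chr1:44739842-44739862, plus strand: gcggcggtttAcgcggcgtta
SMC4, chr3:160399670-160399690, plus strand: gagccgaaacAccggtaggag
HMMR, chr5:163460654-163460674, plus strand: agtgccagtcAccttcagttt
CDK1, chr10:60778495-60778515, plus strand: tggctcttggAaattgagcgg

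In the first 5 of these the edited adenosine follows T, in SMC4 and HMMR it follows C and in CDK1 it follows G. Over the 39 member sites, 14 followed T, 14 followed C, 6 followed G and 5 followed A. Over all genes the motif TA, read on the gene's strand only, was the one most often edited: of the adenosines after T in windows with a called site, 58.4% were called with NES in HEK293T. The figure was 23.6% after C and 10.9% after A or G. With NLS in HEK293T it was 62.4% after T and 23.9% after C. TA occurred in 60.8% of all 35116 start windows of 50 bases. The mean rate in HEK293T with NES was 14.3% at called sites after T, 9.28% after C, 6.45% after G and 6.29% after A.

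The CCNB1 site, in the mRNA of cyclin B1, and the SMC4 site, in that of a condensin ATPase, were called in all 7 groups. At the CCNB1 site the 2 libraries read 6.78% and 10.1% with NES and 7.43% and 6.64% with NLS in HEK293T, which overlap. In K562 they read 11.4% and 12.7% with NES and 5.43% and 8.66% with NLS, which do not. The CENPE site, in the mRNA of a kinetochore motor, was called with NES (24.2% and 33.3% in HEK293T, 45.2% and 30.3% in K562) and with ERM (31.8% and 38.9%) and in no NLS table. The PRC1 site, in the mRNA of a midzone microtubule bundler, was called with NLS in both lines (12.8% and 12.3% in HEK293T, 8.14% and 11.9% in K562) and in no NES table. A site that a table does not list may be unedited or not covered, and the tables do not tell these apart.

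Most of the 54 mRNAs had more called sites with NES than with NLS, and 14 in HEK293T had the reverse. In HEK293T poly(A) RNA the members held 10714 NES sites, 9208 NLS sites and 4974 ERM sites, or 1.18%, 1.60% and 1.34% of all called sites. In K562 they held 13077 with NES and 7155 with NLS, or 1.38% and 1.28%. ASPM, a spindle pole protein, had 49 NES sites, 542 NLS sites and 13 ERM sites in HEK293T. In K562 it had 321 with NES and 296 with NLS. MKI67, which encodes the proliferation antigen Ki-67 that coats mitotic chromosomes, had 206 with NES and 618 with NLS in HEK293T, and 339 and 168 in K562. Both thus had more NLS than NES sites in HEK293T and more NES than NLS sites in K562.

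CENPF, a large kinetochore protein, had 254 sites with NES and 446 with NLS in HEK293T, and 502 and 351 in K562. CCNB1 had 115 and 211 in HEK293T and 169 and 133 in K562. More sites with NLS than with NES were called for 14 of 53 members with at least 20 NES and NLS sites in all in HEK293T (26.4%, against 12.8% of 7546 genes) and for 3 of 53 in K562 (5.66%, against 11.4% of 7277). The 3 in K562 were PLK1 (181 with NES and 189 with NLS), PRC1 (248 and 284) and HMGB2 (234 and 244). CKS1B, a small CDK-binding subunit, kept the opposite order in both lines, with 110 and 49 sites in HEK293T and 104 and 38 in K562. UBE2C, the ubiquitin-conjugating enzyme of the APC/C, had 92 and 62 sites in HEK293T and was the member with none in K562.

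**Figure D1:**
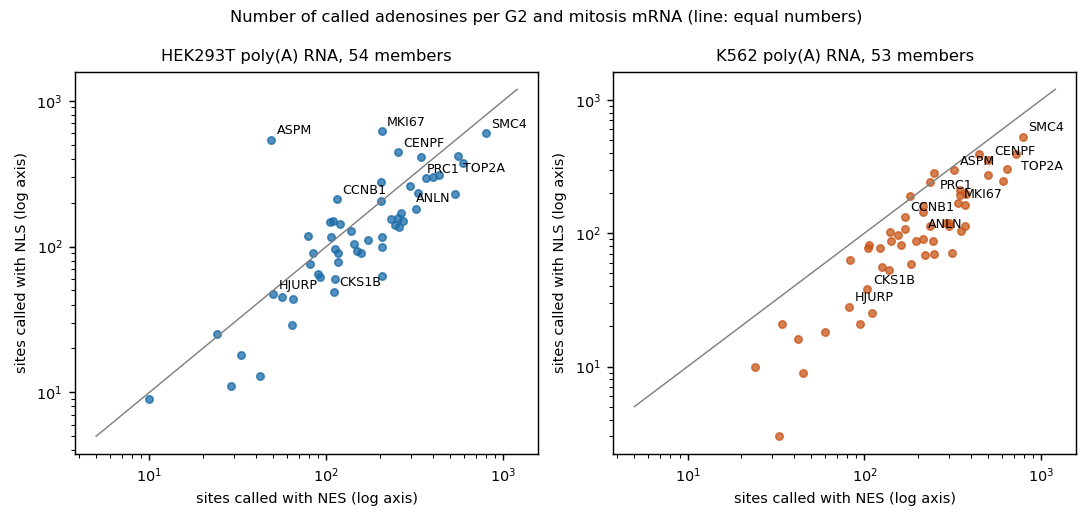
Number of adenosines called with NES (x axis, log scale) and with NLS (y axis, log scale) in poly(A) RNA, with 1 point per mRNA and a line of equal numbers; UBE2C has no site in K562 and is left out there. ASPM (49 against 542) and MKI67 (206 against 618) lie above the line in HEK293T and below it in K562.

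Where NLS sites lay apart from NES sites was counted for the same mRNAs. In HEK293T, 499 of the 542 ASPM sites of NLS were not called with NES, and 128 of those lay more than 300 bases along the genome from any NES site of the gene. In K562 it was 115 of 296, with 6 at that distance. MKI67 had 437 such sites of 618 in HEK293T, with 21 at that distance, and 50 of 168 in K562, with 0. CENPF had 239 of 446 in HEK293T, with 1, and 90 of 351 in K562, with 0. For PRC1 the numbers were 148 of 413 with 55 at that distance in HEK293T and 117 of 284 with 64 in K562. The ASPM count at that distance was thus the larger in HEK293T, while the PRC1 counts were of like size in both lines. The distance depends on how many NES sites a gene has. ASPM had 49 in HEK293T and 321 in K562, and PRC1 343 and 248. These counts therefore cannot part the position of NLS sites from the number of NES sites. Over all genes 22.7% of NLS sites in HEK293T and 24.2% in K562 were not called with NES, and over the members 28.7% and 17.5%. Of those, 11.1% and 13.2% over all genes and 9.41% and 11.2% over the members lay at that distance.

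To compare rates, each library's rate for a gene was averaged over the sites called with both constructs, for genes with at least 5 such sites. The log2 rates were compared with limma, with Benjamini-Hochberg adjustment over all genes tested and a threshold of 0.05, and a gene past it is said to be called. The median gene was 0.66 log2 higher with NES than with NLS in HEK293T and 0.72 higher in K562, so changes are given relative to the median gene unless said otherwise. A member called lower can therefore still have the higher rate with NES as deposited. SMC4, called lower in HEK293T, read 8.35% and 8.08% with NES against 6.45% and 6.68% with NLS there. Each SE is limma's moderated error, in which a gene's own spread is drawn toward that of genes with a like number of sites. The rates are given beside some values only. Where a value was called and its sign turned without centring, the uncentred value is listed under the dependence on processing. Other members called lower in HEK293T with NES against NLS kept their sign without centring but were then not called. Their uncentred values were HJURP -0.0079, KIF20B -0.048, CDCA3 -0.065, CDCA8 -0.071, PRC1 -0.10, HMGB2 -0.10 and KIF23 -0.13.

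In HEK293T poly(A) RNA, 32 of 53 members tested were called lower with NES than the median gene and 10 higher, with a median change of -0.30 log2. Of all 6678 genes, 31.9% were called lower and 32.8% higher. In K562, 17 of 52 were called lower and 24 higher, with a median of 0.10, where 37.3% of 6459 genes were called lower and 37.4% higher. As deposited, with no centring, 30 members were called higher and 7 lower in HEK293T (77.9% and 6.09% of genes), and 48 higher and 0 lower in K562 (80.2% and 5.87%). PSRC1, a spindle protein, had under 5 shared sites in both lines and was not tested.

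**Figure D2:**
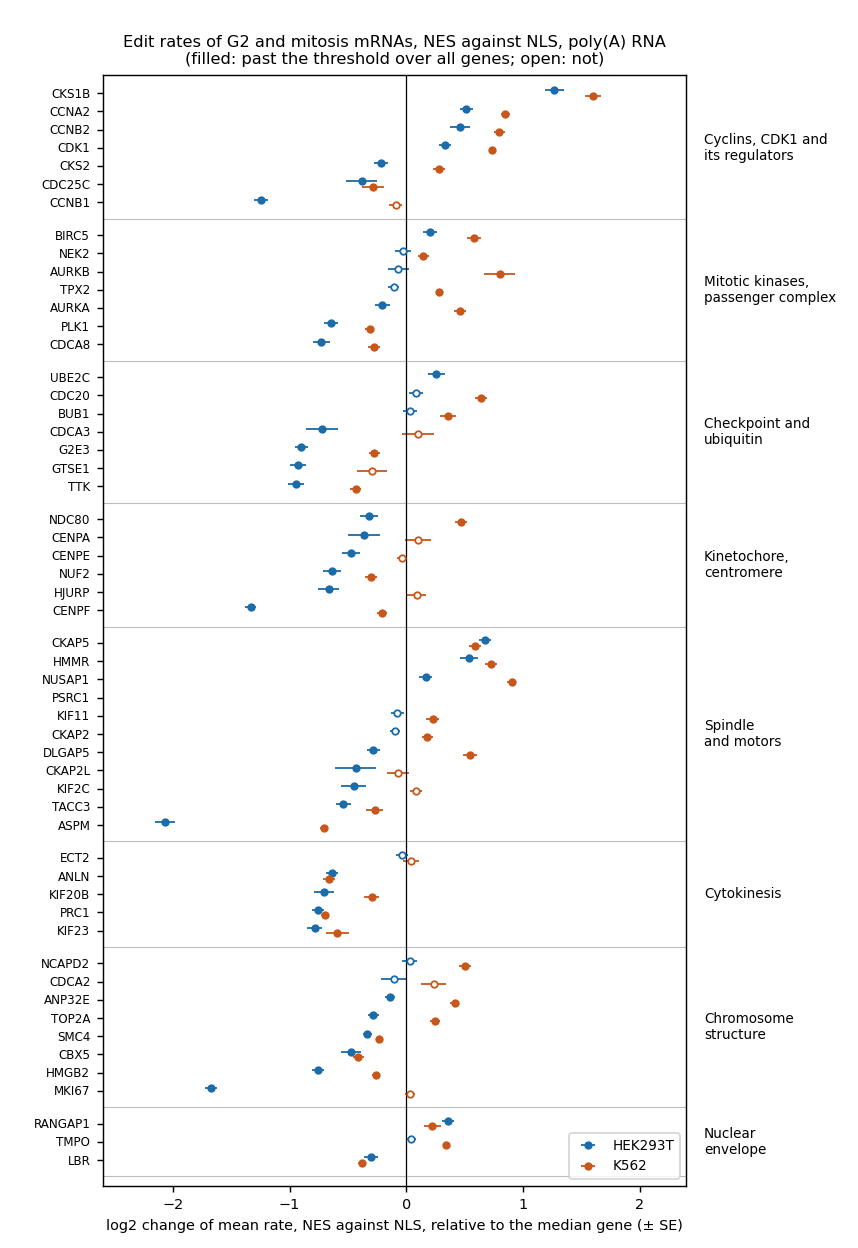
Log2 change of the mean rate with NES against NLS relative to the median gene (x axis, ± SE from limma, 2 libraries per group) for each mRNA by role, in HEK293T (blue) and K562 (orange); filled points are past the threshold over all genes. ASPM (-2.07) and MKI67 (-1.67) lie farthest left in HEK293T, and CKS1B (1.27 and 1.60) farthest right in both lines.

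Of the 7 mRNAs for cyclins, CDK1 and its regulators, 4 were called higher and 3 lower in HEK293T, and 5 higher and 1 lower in K562. For this and each count by role below, the shares over all genes were 32.8% higher and 31.9% lower in HEK293T. In K562 they were 37.4% and 37.3%. The counts by role describe the list and support nothing about a role. CKS1B read 13.8% and 13.9% with NES and 3.43% and 3.90% with NLS in HEK293T, a change of 1.27 ± 0.08 (SE, n = 2 libraries per group). In K562 it read 14.6% in both NES libraries against 3.05% and 2.83%, a change of 1.60 ± 0.07. Its NES libraries stood clear of its NLS libraries in both lines. CCNA2, which encodes cyclin A2, read 9.47% and 8.94% against 3.97% and 4.20% in HEK293T (0.51 ± 0.06) and 12.8% and 13.4% against 4.31% and 4.54% in K562 (0.85 ± 0.04). CDK1, the mitotic kinase itself, read 10.6% in both NES libraries against 5.27% and 5.41% in HEK293T (0.33 ± 0.05), and 12.3% and 12.7% against 4.52% and 4.57% in K562 (0.74 ± 0.03).

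CCNB1 differed from the other cyclins in its rates. With NES its HEK293T libraries read 4.30% and 4.55% and with NLS 6.41% and 6.91%, so that NES was below NLS as deposited too, and the change was -1.25 ± 0.06. In K562 they read 8.68% and 8.77% with NES and 5.32% and 6.00% with NLS, which was not called at -0.09 ± 0.06. CCNB2, the second B-type cyclin, was called higher in both lines (0.46 ± 0.09 and 0.80 ± 0.05). CKS2, the paralogue of CKS1B, was called lower at -0.22 ± 0.06 in HEK293T and higher at 0.28 ± 0.05 in K562, where the median of site rates in place of the mean gave -0.13 and no call. CDC25C, the phosphatase that activates CDK1, was called lower in both, at -0.38 ± 0.13 and -0.28 ± 0.10, over 13 and 16 sites.

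Among the 7 mRNAs of mitotic kinases and the chromosomal passenger complex, 1 was called higher and 3 lower in HEK293T, and 5 higher and 2 lower in K562. PLK1, the Polo-like kinase, read 7.59% and 7.89% with NES against 7.93% and 7.43% with NLS in HEK293T, which overlap, and was called lower at -0.65 ± 0.06. In K562 it read 11.9% and 11.7% against 9.09% and 8.73% and was called lower at -0.31 ± 0.04. AURKA, a kinase of spindle poles, was called lower in HEK293T at -0.21 ± 0.06 and higher in K562 at 0.46 ± 0.05. TPX2, which activates it, was not called in HEK293T (-0.11 ± 0.05) and was called higher in K562 (0.28 ± 0.03). AURKB, the kinase of the passenger complex, was not called in HEK293T (-0.07 ± 0.09 over 37 sites) and was called higher in K562 at 0.80 ± 0.13, over 8 sites. Its partners parted: BIRC5 (survivin) was called higher in both lines at 0.20 ± 0.06 and 0.58 ± 0.06, and CDCA8 (borealin) lower in both at -0.73 ± 0.07 and -0.27 ± 0.05.

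Of the 7 checkpoint and ubiquitin mRNAs, 4 were called lower and 1 higher in HEK293T, and of 6 tested in K562, 2 and 2. TTK, the checkpoint kinase MPS1, read 7.16% and 7.47% with NES against 8.50% and 9.38% with NLS in HEK293T, a change of -0.95 ± 0.07, and was called lower in K562 at -0.44 ± 0.05. G2E3, a ubiquitin ligase, read 11.8% and 13.0% against 14.2% and 15.02% in HEK293T (-0.90 ± 0.06) and was called lower in K562 (-0.27 ± 0.05). GTSE1, a microtubule-binding protein of G2, read 10.2% and 10.1% against 12.2% and 12.3% (-0.93 ± 0.07) and was not called in K562 (-0.29 ± 0.13, 13 sites). For these 3 mRNAs both NES libraries lay below both NLS libraries in HEK293T as deposited. CDC20, an activator of the APC/C, and BUB1, a checkpoint kinase, were not called in HEK293T (0.08 ± 0.06 and 0.03 ± 0.06) and were called higher in K562 (0.64 ± 0.05 and 0.36 ± 0.07). UBE2C was called higher in HEK293T at 0.25 ± 0.07.

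All 6 kinetochore and centromere mRNAs were called lower in HEK293T, and in K562 2 were called lower, 1 higher and 3 not. CENPF read 7.98% and 7.95% with NES against 12.3% and 13.2% with NLS in HEK293T, a change of -1.34 ± 0.05 over 207 sites. In K562 the order was the other way as deposited, with 15.3% and 15.8% against 11.4% and 10.5%, and the change relative to the median gene was -0.21 ± 0.04. NDC80, a core microtubule coupler, was called lower in HEK293T at -0.32 ± 0.08 and higher in K562 at 0.47 ± 0.05. NUF2, its partner, was called lower in both at -0.64 ± 0.08 and -0.30 ± 0.05. HJURP, the chaperone that deposits the centromeric histone, changed by -0.67 ± 0.09 in HEK293T and was not called in K562 at 0.09 ± 0.09. CENPE was called lower in HEK293T at -0.47 ± 0.08 and not called in K562 at -0.04 ± 0.04.

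The spindle and motor mRNAs spread the widest, from -2.07 to 0.67 log2 in HEK293T, with 5 of 10 tested called lower and 3 higher. In K562, 2 were called lower and 6 higher. ASPM read 8.25% and 7.85% with NES against 22.1% and 20.7% with NLS in HEK293T over 43 shared sites, a change of -2.07 ± 0.08. In K562 it read 12.6% and 12.5% against 12.5% and 12.4% over 181 shared sites, a change of -0.71 ± 0.03. CKAP5, a microtubule polymerase, was called higher in both lines at 0.67 ± 0.05 and 0.59 ± 0.05, and HMMR, a spindle assembly factor, at 0.54 ± 0.08 and 0.73 ± 0.05. DLGAP5, a spindle microtubule stabiliser, was called lower in HEK293T at -0.28 ± 0.05 and higher in K562 at 0.54 ± 0.06. NUSAP1, a microtubule bundler near chromosomes, was called higher in both at 0.17 ± 0.05 and 0.90 ± 0.04.

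Of the 5 cytokinesis mRNAs, 4 were called lower in each line and none higher; as deposited 1 was called higher in HEK293T and 2 in K562, and none lower. PRC1 read 8.29% and 8.42% with NES against 8.47% and 9.47% with NLS in HEK293T (-0.76 ± 0.05). In K562 it read 11.2% and 11.01% against 11.2% and 10.7% (-0.70 ± 0.04). ANLN, a scaffold of the contractile ring, changed by -0.63 ± 0.05 and -0.67 ± 0.05, and its NES and NLS libraries overlapped as deposited in both lines. KIF23, a motor of the central spindle, changed by -0.79 ± 0.06 and -0.59 ± 0.10, and KIF20B, a kinesin of late mitosis, by -0.71 ± 0.09 and -0.30 ± 0.06. ECT2, the exchange factor that switches on RhoA at the cleavage site, was called in neither line (-0.04 ± 0.05 and 0.04 ± 0.07).

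Of the 8 chromosome structure mRNAs, 6 were called lower and none higher in HEK293T, and 3 lower and 3 higher in K562. MKI67 read 6.54% and 6.20% with NES against 12.5% and 13.3% with NLS in HEK293T, a change of -1.67 ± 0.05 over 181 sites. In K562 it read 17.8% and 16.8% against 10.1% and 10.4%, and was not called at 0.03 ± 0.04. HMGB2, a chromatin protein, was called lower in both lines at -0.76 ± 0.05 and -0.26 ± 0.04, as were SMC4 at -0.33 ± 0.04 and -0.23 ± 0.03 and CBX5, which encodes the heterochromatin protein HP1 alpha, at -0.47 ± 0.08 and -0.41 ± 0.05. TOP2A, the topoisomerase that untangles sister chromatids, was called lower in HEK293T at -0.28 ± 0.05 and higher in K562 at 0.25 ± 0.04. ANP32E, a histone chaperone, had the same pattern at -0.14 ± 0.04 and 0.41 ± 0.04.

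The 3 nuclear envelope and transport mRNAs parted. RANGAP1, which drives the Ran cycle, was called higher in both lines at 0.36 ± 0.05 and 0.22 ± 0.08. LBR, the lamin B receptor, was called lower in both at -0.30 ± 0.06 and -0.38 ± 0.03. TMPO, a lamina-associated protein, was not called in HEK293T (0.04 ± 0.04) and was called higher in K562 (0.34 ± 0.03).

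Across the 52 members tested in both lines, 9 were called higher in both, 17 lower in both, and 6 lower in HEK293T and higher in K562. Of the 5492 genes tested in both, 28.8% were called higher in both, 25.8% lower in both and 1.15% lower in HEK293T and higher in K562. The 6 members were CKS2, AURKA, NDC80, DLGAP5, TOP2A and ANP32E, and no member was called the opposite way, as 1.17% of genes were. As deposited all 6 were called higher with NES in both lines, with both NES libraries above both NLS libraries. Their calls lower in HEK293T are thus relative to the median gene only. The K562 call of CKS2 was lost with the median of site rates, as given above. The change was the more positive in K562 for 48 of the 52 members and for 54.5% of the genes. In HEK293T the calls of ANP32E, AURKA, BIRC5, CDC25C, CENPA, CKAP2L, CKS2, NUSAP1 and UBE2C were lost in at least 1 fit that left out a library. In K562 this was so for CDC25C, CKAP2, KIF11, NEK2, RANGAP1 and TACC3. Over these members the changes in the lines had a Pearson correlation of 0.79, given as a description, since members share libraries within each line. It was not computed over all genes, so it is not known to be particular to the list.

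The difference between the lines was fitted directly, as the NES-to-NLS change in K562 minus that in HEK293T over the 283817 sites called in all 4 poly(A) groups. The median gene differed by 0.13 log2, and values are relative to it. Of 51 members tested, 33 were called higher, that is, more toward NES in K562, and 1 lower, with a median of 0.35 log2. Of all 5132 genes, 18.4% were called higher and 16.6% lower, and as deposited the members' counts were 40 and 0 (29.1% and 8.69% of genes). The members were chosen with both within-line changes known, so these counts describe them and support nothing. Delivery of the plasmid differed between the lines (lipofection and electroporation), and line and delivery cannot be told apart.

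MKI67 and ASPM had the largest differences. Over the 77 MKI67 sites called in all 4 groups, HEK293T read 7.34% and 6.79% with NES and 15.1% and 16.6% with NLS, and K562 read 19.6% and 18.7% with NES and 9.75% and 10.3% with NLS. The difference was 1.97 ± 0.09 log2. Over 34 ASPM sites HEK293T read 7.80% and 7.78% with NES and 22.0% and 21.3% with NLS, and K562 read 24.2% and 25.0% with NES and 17.0% and 16.0% with NLS, a difference of 1.93 ± 0.10. At these sites NES was below NLS in HEK293T and above it in K562 in both mRNAs, with no overlap of libraries. For ASPM the K562 order depended on the choice of sites: over the 181 sites shared in K562 the rates given above, 12.6% and 12.5% with NES and 12.5% and 12.4% with NLS, were not called apart as deposited.

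CCNB1 and CENPF had the same order. The CCNB1 mean over 84 sites was 4.68% ± 0.184 with NES and 7.57% ± 0.294 with NLS in HEK293T, and 9.54% ± 0.169 and 5.95% ± 0.572 in K562 (SD, n = 2), a difference of 1.25 ± 0.09 log2. For CENPF over 155 sites the means were 8.41% ± 0.072 and 14.0% ± 1.03 in HEK293T, and 19.4% ± 0.435 and 12.6% ± 0.817 in K562, a difference of 1.22 ± 0.07. HJURP differed by 1.02 ± 0.16 over 20 sites, DLGAP5 by 0.86 ± 0.09, NDC80 by 0.77 ± 0.10 and AURKB by 0.77 ± 0.20 over 8 sites.

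By role, differences were called higher for 5 of 7 mRNAs of cyclins and CDK1, 6 of 7 of kinases and the passenger complex, 4 of 5 tested of the checkpoint, 5 of 6 of kinetochores, 7 of 10 of the spindle and 5 of 8 of chromosome structure. For cytokinesis it was 0 of 5, with values from -0.07 (ANLN) to 0.25 (KIF20B). Whether that share differs from those of the other roles was not tested. Over all genes 18.4% were called higher and 16.6% lower. In the nuclear envelope role TMPO was called higher, LBR was not called and RANGAP1 was called lower. RANGAP1, the 1 called lower, read 17.8% in both NES libraries and 8.38% and 8.47% with NLS in HEK293T, and 17.9% and 18.4% against 8.83% and 10.1% in K562, a difference of -0.27 ± 0.10. It kept its call in 1 of the 8 fits that left out 1 library, that without NLS replicate 1 of K562, where the count called lower was 2; in the fits that left out the other libraries RANGAP1 was not called. The differences of BIRC5, BUB1, CKAP2, CKS1B, KIF11, NUF2 and TACC3 also lost their call in at least 1 such fit. SMC4 (0.07 ± 0.05 over 440 sites) and CKAP5 (-0.14 ± 0.07 over 164) were not called.

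**Figure D3:**
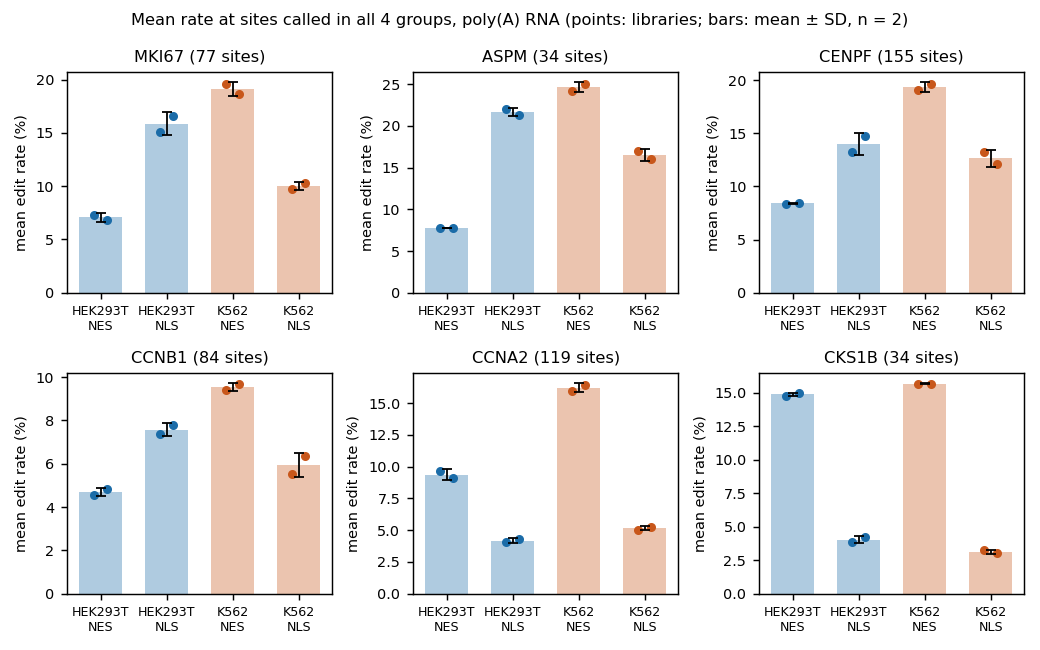
Mean edit rate (percent, y axis) over the sites called in all 4 poly(A) groups for 6 mRNAs, with points for libraries and bars for the mean ± SD (n = 2). NES is below NLS in HEK293T and above it in K562 for MKI67, ASPM, CENPF and CCNB1, and above it in both lines for CCNA2 and CKS1B.

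Single sites were counted as well. Of the 4445 member sites called in all 4 groups, both NES libraries were above both NLS libraries at 46.5% in HEK293T and 64.4% in K562, where 61.3% and 64% of the sites of all genes were. Both were below at 22.0% in HEK293T and 12.4% in K562, against 12.5% and 13.9% of all sites. At ASPM, NES was below NLS at 32 of 34 sites in HEK293T and at 5 in K562. At MKI67 it was below at 65 of 77 sites in HEK293T and at 2 in K562. At CENPF it was below at 111 of 155 in HEK293T and at 19 in K562. In K562 NES was above NLS at 20 of the 34 ASPM sites, 54 of the 77 MKI67 sites and 85 of the 155 CENPF sites. These are the sites called in all 4 groups, out of 682, 797 and 685 sites of these mRNAs called in any group. At CKAP5 and HMMR no site was below in HEK293T, of 164 and 56.

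**Figure D4:**
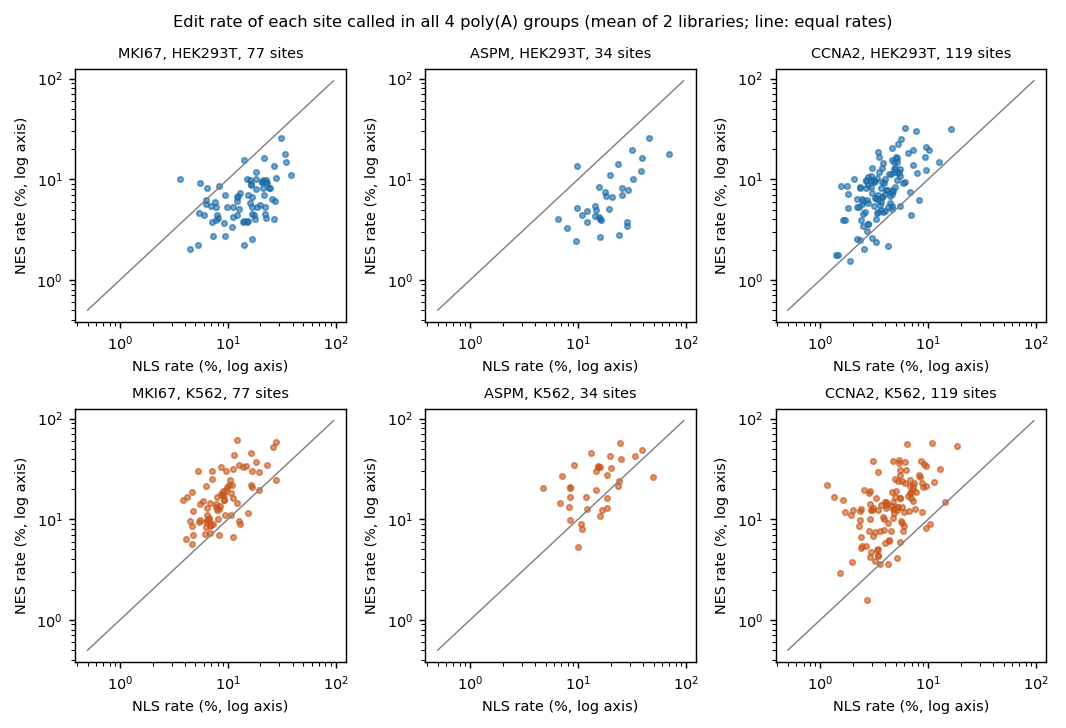
Edit rate with NLS (x axis, percent, log scale) and with NES (y axis, percent, log scale) at each site called in all 4 poly(A) groups, as the mean of 2 libraries, with a line of equal rates. Most MKI67 and ASPM sites lie below the line in HEK293T and above it in K562, and most CCNA2 sites lie above it in both.

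Single adenosines reached high rates with both constructs. The member site of highest mean rate with NES was in DLGAP5 (chr14:55183624, minus strand), at 70.4% and 78.2% with NES and 70.1% and 71.5% with NLS in HEK293T, and 90.0% and 89.8% against 77.7% and 70.9% in K562. A site of ECT2 (chr3:172815645, plus strand) read 55.8% and 54.2% with NES against 15.3% and 12.6% with NLS in HEK293T, and 79.8% and 85.3% against 12.7% and 11.1% in K562. A RANGAP1 site (chr22:41254313, minus strand) read 64.5% and 64.4% against 16.7% and 17.5%, and 67.3% and 73.7% against 19.2% and 18.0%. The DLGAP5 site thus overlapped between constructs in HEK293T, while at the ECT2 and RANGAP1 sites both NES libraries lay above both NLS libraries in each line.

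Other sites stood out with NLS in both lines. An ASPM site (chr1:197122283, minus strand) read 14.7% and 21.1% with NES against 78.1% and 59.8% with NLS in HEK293T, and 23.8% and 29.0% against 50% and 49.02% in K562. An ANLN site (chr7:36390039, plus strand) read 11.02% and 15.4% against 41.3% and 35.2% in HEK293T, and 15.9% and 12.6% against 40.1% and 44.7% in K562. At both sites the NLS libraries were above the NES libraries in each line. A G2E3 site (chr14:30559216, plus strand) read 12.2% and 14.6% against 50% and 54.7%, and 25.0% and 19.2% against 31.4% and 34.4%. All these positions are in hg38 and inside the RefSeq interval of their gene.

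With the ERM enzyme the median gene was 0.66 log2 below NES and 0.13 above NLS, and these comparisons share the NES or NLS libraries with those above. The rates of those libraries were known when the members were chosen, so the counts of calls with ERM support nothing about the list. Against NES, 12 of 52 members were called higher than the median gene and 10 lower, with a median of 0.04, where 12.8% of 6823 genes were higher and 20.9% lower. As deposited the counts were 0 and 50 (0.0733% and 91.2%). MKI67 read 6.02% and 6.00% with ERM against 7.79% and 7.18% with NES over 60 sites (0.35 ± 0.06), and LBR, an integral membrane protein of the nuclear envelope and endoplasmic reticulum, 6.23% and 5.72% against 7.23% and 7.77% (0.33 ± 0.05). HJURP changed by 0.46 ± 0.08 and CDCA2, a phosphatase targeting protein of chromatin, by 0.39 ± 0.09. CKS2 (-0.53 ± 0.07), RANGAP1 (-0.42 ± 0.04) and CKAP5 (-0.32 ± 0.05) were called lower. All 7 of these mRNAs were below NES as deposited in both ERM libraries. Without ERM replicate 2 the count called higher was 7, and without ERM replicate 1 or NES replicate 2 the count called lower was 6.

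Against NLS, 9 of 51 members were called higher and 31 lower with ERM, with a median of -0.30, where 29.8% of 5770 genes were higher and 31.1% lower. These counts are not separate from those of NES against NLS, since the NLS libraries are the same. As deposited the counts were 13 and 25 (40.5% and 22.4%). ASPM read 7.60% and 7.71% with ERM against 25.3% and 22.5% with NLS over 13 sites (-1.77 ± 0.12). CCNB1 read 4.25% and 4.30% against 10.0% and 10.5% (-1.40 ± 0.07), CENPF 7.37% and 6.98% against 16.4% and 18.1% (-1.40 ± 0.07), and MKI67 5.96% and 6.04% against 13.6% and 15.3% (-1.40 ± 0.07). In these 4 mRNAs the ERM libraries were far below the NLS libraries. CKS1B was called higher, at 9.17% and 8.73% against 3.73% and 4.22% (1.04 ± 0.08), and CCNA2 at 7.80% and 6.72% against 4.60% and 4.97% (0.46 ± 0.08).

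In rRNA-depleted RNA of HEK293T, 1 of 48 members tested was called higher with NES and 2 lower, with a median of 0.02 log2, where 0.924% of 5302 genes were higher and 3.68% lower. As deposited the counts were 2 and 2 (1.21% and 3.49%). The NES libraries differed from each other, with mean member rates of 15.4% and 19.3%, and the NLS libraries read 18.1% and 18.4%. CKS1B read 26.8% and 37.7% with NES against 12.9% in both NLS libraries (1.27 ± 0.23). ASPM read 13.1% and 17.7% against 28.3% and 29.6% over 14 sites (-0.95 ± 0.23), and CCNB1 10.1% and 14.2% against 19.4% and 23.0% over 35 (-0.85 ± 0.23). MKI67 over 135 sites read 17.8% and 20.1% against 26.2% and 25.8% (-0.49 ± 0.24) and CENPF 19.5% and 24.6% against 25.2% and 26.4% (-0.26 ± 0.23), and neither was called. Without NES replicate 1 the counts were 14 higher and 11 lower, without NES replicate 2 they were 13 and 11, and without either NLS library both were 0. In simulated data of this comparison no gene moved by 1 log2 was recovered. The simulation drew each gene's libraries independently, while the real NES libraries differed from each other in their mean rate. The real fit called smaller changes, such as that of CCNB1, so the simulation cannot tell what it missed.

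Genes of the same processes outside the list gave other counts. Of 71 further G2 and mitosis genes, 65 were tested in HEK293T, with 15 called higher and 29 lower and a median of -0.17. In K562, 61 were tested, with 19 higher and 23 lower and a median of 0.02. Over all genes 32.8% were called higher and 31.9% lower in HEK293T, and 37.4% and 37.3% in K562. WEE1, the kinase that holds CDK1 inactive, read 7.16% and 7.24% with NES against 16.1% and 16.8% with NLS in HEK293T (-1.85 ± 0.05), and 6.20% and 5.94% against 11.7% in both libraries in K562 (-1.66 ± 0.04). Its NES libraries were below its NLS libraries in both lines as deposited. KIF18B, a kinesin, changed by -1.36 ± 0.11 and -1.09 ± 0.08, while MAD2L1, a checkpoint protein, changed by 0.71 ± 0.06 and 1.00 ± 0.07 and CENPH, a centromere protein, by 0.77 ± 0.09 and 0.87 ± 0.07. In the difference between lines 15 of 58 were called higher and 7 lower, with a median of 0.11. Over all genes 18.4% were higher and 16.6% lower there. KIFC1, a spindle motor (1.09 ± 0.19 over 13 sites), and ARHGAP11A, a regulator of RhoA (0.95 ± 0.08), were the highest.

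Of 43 S phase genes, 42 were tested in HEK293T, with 22 higher and 12 lower and a median of 0.24. In K562 39 were tested, with 20 higher and 7 lower and a median of 0.16. The shares over all genes were again 32.8% and 31.9% in HEK293T and 37.4% and 37.3% in K562. MCM6, a subunit of the replicative helicase, read 12.2% in both NES libraries against 3.62% and 3.93% in HEK293T (1.04 ± 0.05). In the difference between lines 3 of 36 were called higher and 11 lower, with a median of -0.06, against 18.4% and 16.6% of all genes. POLA1, the catalytic subunit of DNA polymerase alpha, was the lowest at -0.89 ± 0.17 over 13 sites.

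The 10 single HEK293T cells with NES were read site by site, with 1 rate per site and no read count or p-value in the tables. The cells held 1201 to 4810 sites of the 54 mRNAs (median 3439.5), in 42 to 54 of them, and 36 members had sites in every cell. Per 1000 sites of a cell the members had 7.67 to 13.8, with a median of 8.97. Cell 1 had the highest share, 13.8, and there 45.2% of all sites had a rate under 1%, against 16.7% to 31.5% in the other 9. At sites also called in bulk with NES, the mean member rate ran from 12.8% in cell 7 to 40.7% in cell 4, and the mean over all genes from 17.2% to 37.3%. The ratio of the members' rate to that of all genes was between 0.60 (cell 7) and 1.22 (cell 5). No groups of cells were compared.

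The number of listed sites of an mRNA varied between cells. CKS2 had 63 to 124 sites per cell (median 104.5) and HMGB2 76 to 157 (median 127.5). TOP2A had 6 to 294 (median 192.5), ANLN 12 to 482 (median 60.5), and MKI67 8 to 84 (median 14.5). CENPA, the centromeric histone, had sites in 4 cells, CKAP2L and PSRC1 in 5. Mean rates over the sites of a gene also called in bulk spread widely. CCNB1 ran from 1.58% to 28.0% (median 8.54%), CDC20 from 0.634% to 91.9% (median 18.7%), and MKI67 in 9 cells from 15.7% to 99.9% (median 79.8%). CKS2 lay between 2.06% and 7.67%, and its bulk mean with NES was 4.99%. The bulk means of CCNB1 and CDC20 were 4.32% and 6.93%, below their medians over the cells. MKI67 read 6.54% and 6.20% in the bulk NES libraries over the 181 sites called with both NES and NLS, also below its median over the cells. A bulk mean covers all sites of the gene called in bulk, and a cell's mean only those also listed in that cell. A rate near 100% in a cell can rest on few molecules, and the number was not given.

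Of 16956 member sites seen in any cell, 10107 were seen in 1 cell and 96 in all 10. Of the 96, 31 were in CKS2, 16 in CKS1B, 14 in HMGB2, 12 in UBE2C, 11 in CDC20 and 5 in CDK1, and 90 were also called in bulk with NES. The median rate of those 90 was 18.8% in bulk, and the median of the cells' medians over all 96 was 12.2%. The values thus rest on different sets of sites. No ASPM or MKI67 site was among the 96.

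**Figure D5:**
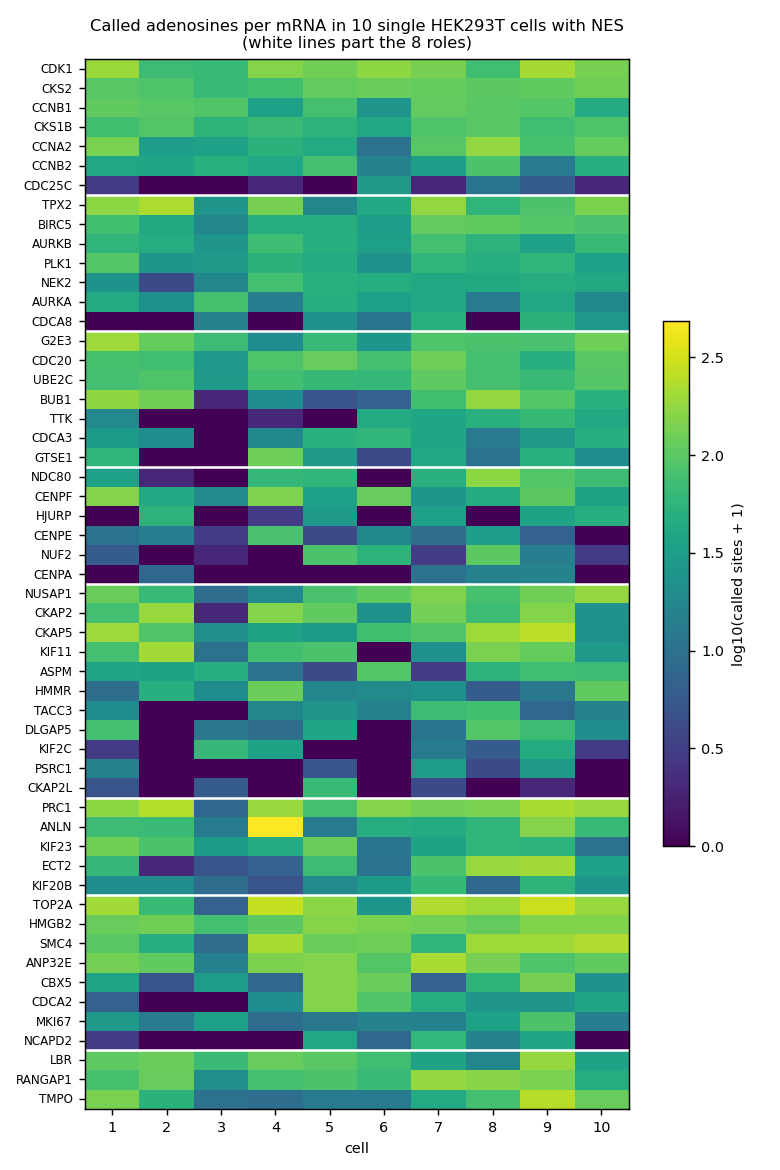
Number of called adenosines, as log10(sites + 1) (colour), for each of the 54 mRNAs (rows, by role) in each of 10 single HEK293T cells (columns). CKS2 and HMGB2 have sites in every cell, CENPA in 4, and ANLN has 482 sites in cell 4.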

How the data were processed

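The submitters' processing notes name cutadapt 2.6, STAR, Bowtie2, SAMtools, Picard, bedtools 2.27.0 and the build hg38; what each did, and the site caller, is not stated in those notes. The deposited fraction of changed reads per site and library was used as a percent. The authors' adjusted p-value, also deposited for each library, was under 0.05 at every listed site. Single cells were prepared by SMART-Seq v4 per the protocol, and by Smart-seq2 per the titles. Total RNA, tRNA and genomic DNA were not analysed here.

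The members and all gene lists were chosen with earlier results of these data known. The planned model was kept for fractions: limma 3.58.1 in R 4.3.3, two-sided, on log2 of the gene mean rate in percent, with no pseudocount, since every listed rate is above 0, and a variance trend on the log2 number of sites. Changes were centred on the median gene because it moved by more than 0.1 log2 in all comparisons but the rRNA-depleted one. For the difference between lines, 515 sites named for different genes were left out. Named genes are, in each role, the 3 with most shared sites, the 6 largest changes in each direction per comparison with no overlap of libraries, and for the other lists the 3 largest in each direction. Others, such as those that parted between lines, were named after their values were seen. The 10 sites of highest NES rate and the 6 of largest NLS excess were eligible, 1 per gene.

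In data simulated for each comparison 200 genes were moved, 100 of them by 1 log2, of which limma recovered 88% (HEK293T), 91% (K562), 0% (rRNA-depleted), 85% (ERM against NES), 78% (ERM against NLS) and 92% (difference between lines). In the simulations each gene's libraries were drawn independently, with no shift common to a library. Sequences are from RefSeq, GRCh38.p14. Python 3.11.15, pandas 2.3.3, numpy 2.4.6 and matplotlib 3.10.9 were used.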

Additional observations from a re-analysis of the deposited data

Results flagged for a closer look

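In the 10 single cells 30 measures of the members were looked at. For 4 of them, 1 cell was apart from the other 9 by a gap past Dixon's critical value for 10 values. With independent, normally distributed values about 1 in 20 measures would have such a gap. These measures share the same 10 cells and most are site counts, so that rate need not hold here. Cell 1 held 13.8 member sites per 1000 called sites, and 93 PLK1 sites. Cell 4 held 81 sites of CENPE and 482 sites of ANLN.

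The change from NLS to NES differed between HEK293T and K562, in the fit of the difference itself, for 34 of 51 members tested, 33 higher and 1 lower, where 18.4% of 5132 genes were higher and 16.6% lower. The values are log2, K562 minus HEK293T, relative to the median gene. The members above 0.5 were MKI67 1.97, ASPM 1.93, CCNB1 1.25, CENPF 1.22, HJURP 1.02, DLGAP5 0.86, NDC80 0.77, AURKB 0.77, NUSAP1 0.67, TTK 0.64, G2E3 0.64, KIF2C 0.61, AURKA 0.60, CENPE 0.54 and TOP2A 0.52. Those between 0.35 and 0.5 were CDC20 0.49, NCAPD2 0.47, ANP32E 0.45, CKS2 0.44, CDCA8 0.44, HMGB2 0.41, CDK1 0.37 and CCNA2 0.36. The others above 0 were NUF2 0.34, PLK1 0.33, TMPO 0.32, TACC3 0.32, BUB1 0.32, TPX2 0.31, CKS1B 0.31, BIRC5 0.30, KIF11 0.27 and CKAP2 0.24. RANGAP1 was the 1 below 0, at -0.27. The members were chosen with both within-line changes known, so these values are a description.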

How the results depend on the processing

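With no centring on the median gene, the members called higher and lower were 30 and 7 in HEK293T, 48 and 0 in K562, 2 and 2 in rRNA-depleted RNA, 0 and 50 for ERM against NES, and 40 and 0 for the difference between lines. Uncentred log2 values had the other sign, where either value was called, in HEK293T for CKS2 0.44, CDC25C 0.28, AURKA 0.45, AURKB 0.59, PLK1 0.012, NEK2 0.63, TPX2 0.55, NDC80 0.34, NUF2 0.020, CENPA 0.29, CENPE 0.19, KIF11 0.58, KIF2C 0.21, TACC3 0.12, CKAP2 0.56, CKAP2L 0.22, DLGAP5 0.38, ANLN 0.023, ECT2 0.62, TOP2A 0.38, SMC4 0.32, CBX5 0.18, ANP32E 0.52, CDCA2 0.55 and LBR 0.36; in K562 for CCNB1 0.63, CDC25C 0.43, PLK1 0.41, CDCA8 0.44, TTK 0.28, G2E3 0.44, GTSE1 0.43, NUF2 0.41, CENPE 0.68, CENPF 0.51, TACC3 0.45, CKAP2L 0.65, ASPM 0.012, ANLN 0.052, KIF23 0.13, KIF20B 0.42, PRC1 0.023, SMC4 0.49, HMGB2 0.46, CBX5 0.31 and LBR 0.33; and for ERM against NES for CDK1 -0.62, CDC25C -0.63, AURKA -0.45, PLK1 -0.32, NEK2 -0.55, BIRC5 -0.49, CDC20 -0.37, TTK -0.63, CDCA3 -0.52, G2E3 -0.40, GTSE1 -0.62, NDC80 -0.54, CENPE -0.57, HJURP -0.21, KIF11 -0.50, TACC3 -0.60, CKAP2 -0.66, ASPM -0.034, DLGAP5 -0.59, ANLN -0.63, ECT2 -0.59, KIF20B -0.58, HMGB2 -0.46, MKI67 -0.32, CBX5 -0.66, CDCA2 -0.27, TMPO -0.43 and LBR -0.33. The shift of the median gene sets these by construction. Over the members tested, the other alternatives turned 3 values, all with the median of site rates: CKS2 in K562 (-0.13), HMGB2 for ERM against NES (-0.15) and CDC25C for ERM against NLS (0.037).

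With at least 20 shared sites, 1 member was lower in rRNA-depleted RNA and 6 with ERM against NES. Without a variance trend ERM against NES gave 7 higher and 2 lower. With the median of site rates ERM against NLS gave 5 higher. The count lower in the difference between lines was 0 with no filter, without a trend or with sites shared within each line. The cause was not tested. Leaving out 1 library gave 8 to 10 higher and 28 to 32 lower in HEK293T, 21 to 25 and 15 to 19 in K562, 0 to 14 and 0 to 11 in rRNA-depleted RNA, 7 to 12 and 6 to 9 for ERM against NES, 8 to 9 and 26 to 29 for ERM against NLS, and 27 to 35 and 0 to 2 for the difference; a lone library is then assumed to vary like the other groups.

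The labels give replicate numbers but no shared source, and deviations of same-numbered libraries correlated between -0.022 and 0.092, so the numbers were not taken as pairs. With the replicate block the counts were 10 and 32, 25 and 18, 1 and 2, 13 and 11, 9 and 30, and 34 and 1, in the order above. The alternative for single cells with a minimum of 10 reads was not run, since the tables used give no coverage. Depth is unknown throughout, so rates of thinly and deeply read sites weighed alike.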
